A study of Mus musculus with 2 samples.

Results

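The H19 and Igf2 imprinted domain of mouse chromosome 7 was examined for 5-hydroxymethylcytosine (5hmC), the oxidised form of 5-methylcytosine that TET enzymes make. Its members were chosen by position alone. They are the cytosines that the authors' table lists on chromosome 7 with a second column from 149755000 to 149880000 (build mm9), which gives 855 of the 13025343 cytosines listed genome-wide. The DNA came from E14, an established mouse embryonic stem cell line, at passage 12. It was glucosylated and cut with AbaSI, an enzyme that recognises the glucosylated form of 5hmC and cuts at a distance from it. Libraries labelled replicates 1 and 2 formed the only group, no control sample was analysed here, and the table holds their reads in 1 pooled count per cytosine. Every value below is therefore a single pooled measurement without replicate error, and no test between conditions was possible.

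H19 is a maternally expressed non-coding RNA that hosts the microRNA miR-675, and Igf2 is a paternally expressed growth factor gene. Both share enhancers that lie beyond H19. In the mouse a control region upstream of H19 is methylated on the paternal copy, while on the unmethylated maternal copy it binds the insulator protein CTCF, which keeps the enhancers from Igf2. Methylated cytosines are the substrate for TET enzymes, so where this imprint is kept the substrate differs between the parental copies. Whether the E14 DNA kept it was not examined here. The reads here were not assigned to a parental copy. H19 lies at chr7:149761437-149764051 on the minus strand, so its upstream side has the higher coordinates. The control region was taken as 2 to 4 kb upstream of that start (149766052 to 149768051), and Igf2, also read from the minus strand, as about 149836600 to 149852800. In the RefSeq gene order of another build, Nctc1 and Mrpl23 follow below H19, and Igf2os and Ins2 lie by the upstream end of Igf2.

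Only a start of Igf2 could be shown as sequence beside its measured cytosines. RefSeq (GRCm38.p6) gives 4 starts for Igf2, and the 300 bases around the second, counted from the upstream end of the gene, hold 14 CG dinucleotides. Laid on the listed CG positions by spacing alone, this sequence had a single best place in the domain, at chr7:149847127-149847426 of mm9 on the minus strand. There 5 of 5 listed CG dyads fell on a CG of the sequence, against 2 in the next best place. A CG dyad is a CG with its partner on the other strand. For the other 3 starts no place stood apart in this way. The bases may differ between the builds and from E14. The sequence is printed from 250 bases before the start to 50 after it, with the 5 CG that carry a listed cytosine in capitals.
Igf2 start 2: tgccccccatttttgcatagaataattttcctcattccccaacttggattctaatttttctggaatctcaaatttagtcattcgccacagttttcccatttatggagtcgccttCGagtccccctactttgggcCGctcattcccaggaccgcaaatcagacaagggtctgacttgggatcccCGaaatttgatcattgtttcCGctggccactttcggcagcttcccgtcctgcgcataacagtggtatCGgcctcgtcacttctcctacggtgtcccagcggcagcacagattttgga
From left to right these dyads carried 3, 3, 5, 6 and 7 reads, 24 in all, and none of the 5 was listed on both strands. The other 9 CG of the sequence had no line in the table, which is not a measured 0, because the authors' minimum for listing is unknown and the lowest listed count was 2.

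The domain as a whole had more reads than most stretches of its chromosome. It held 10626 reads, or 85.0 reads per kb (95% exact Poisson interval 83.4 to 86.6, which covers counting error only, as do all intervals here). The rest of chromosome 7 had 59.8 reads per kb, a ratio of 1.42 (1.39 to 1.45). The ratio of listed cytosines per kb was 1.45 (1.36 to 1.55), while the median was 9 reads per listed cytosine in both. Of the 1196 windows of chromosome 7 as long as the domain, 71.2% had fewer reads and 344 had more. Over the autosomes 67.4% of such windows had fewer. Stretches of chromosome 7 without any listed cytosine, among them whole windows with 0 reads, were kept in its length and windows. They were also kept in the 1 kb bins used below. Their part in the ratios, window ranks and bin backgrounds was not tested. The number of CG in the underlying sequence was not used here, so reads per kb are not a level of 5hmC per cytosine.

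**Figure D1:**
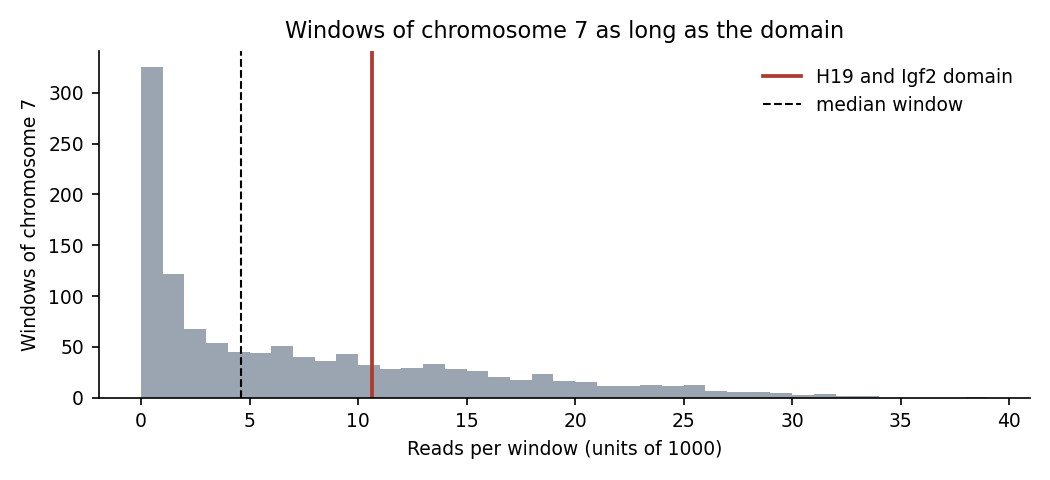
Histogram of reads per window (x axis, in units of 1000 reads) for the 1196 windows of chromosome 7 as long as the domain (y axis, number of windows). The domain (red line, 10626 reads) lies above the median window (dashed line, 4600.5 reads) and below 344 windows.

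Along the domain the reads fell from the H19 side to the side above Igf2, with a second rise in Igf2. In successive 25 kb steps from the low end, the density was 161.8, 109.9, 40.8, 96.2 and 16.4 reads per kb. A bin of 1 kb was called high when it had at least 2 times the reads of the median bin of chromosome 7, that is at least 26 reads, and low at 6.5 reads or fewer. By that rule 73 of the 125 bins of the domain were high, or 58.4% (49.2 to 67.1), against a background of 40.9% of all bins of chromosome 7. Low bins numbered 28, or 22.4%, against a background of 42.9%, and 18 of the 125 bins (14.4%) had no listed cytosine, against 35.1% on chromosome 7. The longest run of high bins in the domain had 14 in a row, from its low edge at 149755001 to 149769000, with 3713 reads. It covered the stretch below H19, H19, the 2 kb before it, the control region and a short piece beyond. The domain's edge cuts this run, which continued through 38 further high bins of the lower flank, 52 in all. Runs of 13, 8 and 8 high bins followed, the first 2 between the control region and Igf2 and the last at the 3′ end of Igf2.

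The flanks were unlike each other. The 300 kb below the domain had 103.2 reads per kb (102.1 to 104.4) and a median of 80.5 reads per bin. Both values exceeded those of the domain, 85.0 and 41. Above the domain, 300 kb had 35.9 reads per kb (35.2 to 36.6) and a median of 8.5 reads per bin. The fall began inside the domain. With limits set after the steps were seen, from 149855001 to 150080000, 9 steps of 25 kb in a row had between 6.84 and 16.4 reads per kb, while the step before them had 96.2 and the step after them 98.6. Within those 225 kb, 111 of 225 bins had no listed cytosine (49.3%, against 35.1% on chromosome 7), and the highest bin had 153 reads. Mappability and CG content of that stretch were not analysed here.

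**Figure D2:**
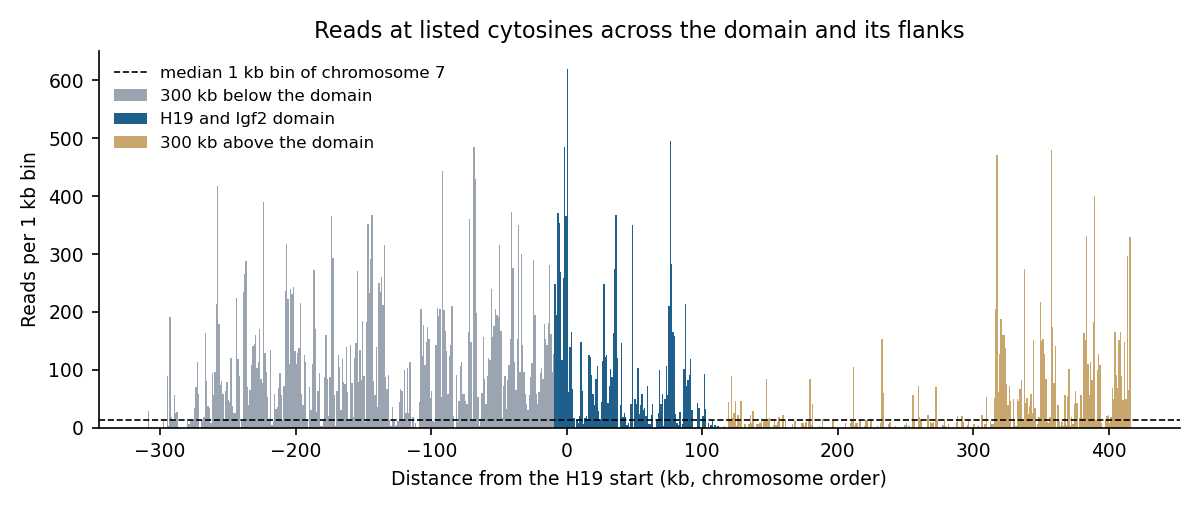
Reads per 1 kb bin (y axis) against distance from the H19 start in kb (x axis), for the domain (blue) and its 300 kb flanks (grey and tan); the dashed line is the median bin of chromosome 7, 13 reads. The signal of the lower flank continues into the domain and stops above Igf2, where bins stay mostly under 26 reads for about 225 kb before they rise again.

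H19 itself was the densest of the 7 stretches into which the domain was divided. Its 2.615 kb held 69 listed cytosines and 1049 reads, or 401.1 reads per kb (377.2 to 426.2), which was 5.13 times the rest of the domain (4.81 to 5.46). Only 669 of 57178 windows of chromosome 7 of the same length had more reads, and 98.8% had fewer. The median was 11 reads per listed cytosine with quartiles of 7 and 18, against 9 (5 to 16) on the rest of chromosome 7. Its 3 bins of 1 kb with their centres in the gene held 258, 484 and 365 reads in chromosome order, so the reads extended over the whole transcribed length. Of its 51 CG dyads 18 were listed on both strands, or 35.3% (22.4 to 49.9). No CA, CC or CT cytosine (together CH) was listed in H19 (0 of 69, interval 0 to 5.21%).

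The cytosine with the most reads in H19 was 149763621 on the plus strand with 69 reads, 430 bases downstream of the start. It had a counterpart at 149763642 on the minus strand, 21 bases away, also with 69 reads. Both are of the class 2CG, for which 87.7% of plus-strand sites on chromosome 7 had a minus-strand site of the class 21 to 25 bases to the right, with equal counts for 88.5% of these. The same reads may therefore stand at both. Pairs of this kind made up 8 of the stretch's plus-strand cytosines, 7 of them with equal counts. When cytosines of the paired classes were given a weight of 0.5, the ratio of H19 to the rest of the domain was 4.68. Cytosines with the class code CGCH kept their full weight. One of these, at 149762778 on the minus strand, had 46 reads, near the 47 of the 2CG cytosine at 149762757 on the plus strand. Whether such reads were counted at both was not tested.

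The 2 kb directly upstream of H19 held 673 reads on 23 cytosines, and a single pair of cytosines set that value. The highest cytosines of the whole domain lay there, 550 and 571 bases upstream of the start. The plus-strand cytosine at 149764601 had 232 reads, and the minus-strand cytosine at 149764622, 21 bases away, had 230. Unlike the pair in H19, only the minus-strand cytosine is of the class 2CG, and the plus-strand cytosine has the class code CGCH. The shares given above for 2CG pairs therefore do not cover them. They may still stand for the same reads, counted at both, which was not tested. As listed they held 462 reads, which was 4.35% of the domain's reads and 74.5% of the reads in their bin, the highest bin of the domain with 620. Of all cytosines listed genome-wide, 99.958% and 99.957% had fewer reads than these. Their own dyad partners differed from them: the minus strand at 149764602 had 9 reads and the plus strand at 149764621 was not listed. Without this pair, an alternative chosen after seeing the data, the bin had 158 reads and the 2 kb had 105.5 reads per kb in place of 336.5. The other 21 cytosines of the stretch had between 2 and 20 reads.

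**Figure D3:**
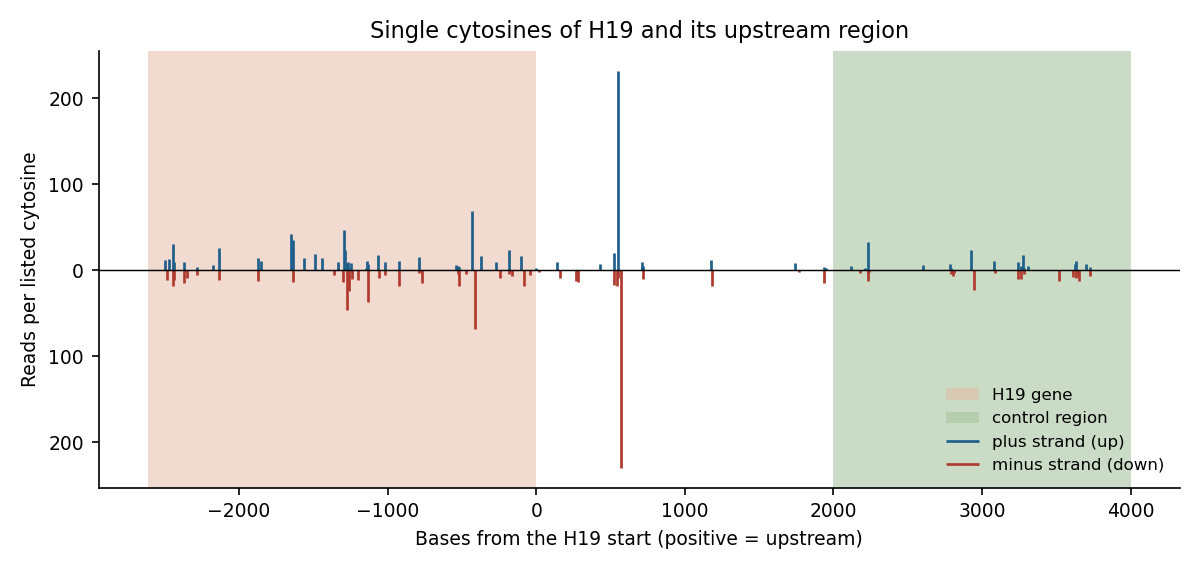
Reads of each listed cytosine (y axis, plus strand upward and minus strand downward) against bases from the H19 start (x axis, upstream to the right), with H19 and the control region shaded. A pair with 232 and 230 reads stands 550 and 571 bases upstream, whereas no cytosine of the control region exceeded 33 reads.

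In the control region many cytosines were listed and each carried few reads. It held 35 listed cytosines in 2 kb, or 17.5 per kb (12.2 to 24.3), compared with 4.71 per kb on the rest of chromosome 7. This was not particular to the control region, since H19 had 26.4 per kb and the stretch below H19 had 15.7. The 2 kb directly upstream of H19 had 11.5 per kb and the remaining stretches 2.57 to 10.6. It had 305 reads, or 152.5 per kb (135.9 to 170.6), 1.82 times the rest of the domain (1.62 to 2.04). The median was 7 reads per cytosine with quartiles of 4.5 and 10.5, the lowest median of the 7 stretches. By listed cytosines it exceeded 95.1% of the windows of chromosome 7 of its length, and by reads 87.2%. With each cytosine counted once the ratio to the rest of the domain was 2.63, while at 10 or more reads per cytosine it was 1.45.

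The control-region cytosines with the most reads lay within the ordinary range of the table. The plus-strand cytosine at 149766284 had 33 reads and its dyad partner at 149766285 had 13. A pair at 149766976 and 149766999 had 23 reads each. The plus-strand cytosine at 149767328 had 18 reads, and the remaining 30 cytosines had between 2 and 13. In 4 steps of 500 bp away from H19 the reads were 63, 76, 80 and 86, on 7, 8, 10 and 10 cytosines. The reads were thus spread over the whole control region. Of 27 dyads with a listed cytosine, 8 were listed on both strands, or 29.6% (13.8 to 50.2), an interval that includes the 36.3% of the rest of chromosome 7. Cytosines of the class 2CG made up 48.6% of those listed (17 of 35), against 11.1% in the whole domain and 7.82% on the rest of chromosome 7. They formed 8 pairs at 22 or 23 bases, all 8 with equal counts. Given a weight of 0.5, they left the control region at 1.54 times the rest of the domain.

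**Figure D4:**
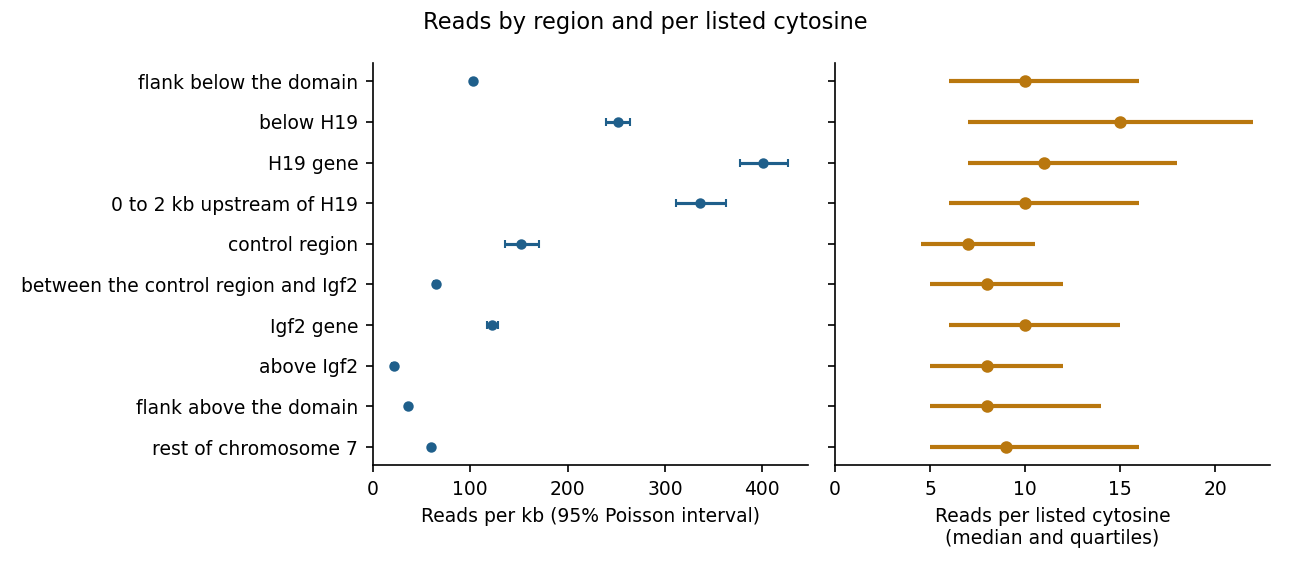
Left, reads per kb with 95% Poisson intervals; right, median and quartiles of reads per listed cytosine, for the stretches of the domain in chromosome order, the flanks and the rest of chromosome 7 (y axis). H19 is highest per kb at 401.1, and the control region combines 152.5 reads per kb with the lowest median of 7 reads per cytosine.

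Below H19, towards the shared enhancers, the signal was high as well and more often on both strands. The 6.436 kb from the domain's low end to H19 held 101 listed cytosines and 1619 reads, or 251.6 reads per kb (239.4 to 264.1). Its cytosines carried a median of 15 reads, the highest of the 7 stretches. Of 64 dyads there, 36 were listed on both strands, or 56.3% (43.3 to 68.6). The 27.201 kb above Igf2 gave 8 of 61, or 13.1% (5.84 to 24.2). These were the highest and the lowest share of the 7 stretches, a contrast not planned beforehand. The other stretches lay between 27.8% and 35.3%. In the domain as a whole the share was 33.4% (29.7 to 37.2; 209 of 626), against 36.3% on the rest of chromosome 7. An unlisted partner strand is not a measured absence of 5hmC. The stretch with the higher share also had more reads per cytosine, with a median of 15 against 8 above Igf2, and the part of that difference in the shares was not tested.

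Igf2 was not evenly covered. The gene held 171 listed cytosines and 1986 reads, or 122.6 reads per kb (117.3 to 128.1), 1.54 times the rest of the domain (1.47 to 1.62). It exceeded 82.2% of the windows of its length on chromosome 7. With limits drawn after the bins were seen, 7.401 kb at its 3′ end (149836600 to 149844000) had 206.2 reads per kb. The next 6 kb had 12.2 reads per kb, and the 2.8 kb at the 5′ end had 138.2. The 3′ part thus had 16.9 times the density of the middle, and the 5′ part 11.4 times. The bin from 149840001 to 149841000, in the 3′ part, held 34 listed cytosines and 495 reads, the second highest bin of the domain. No single site set it, since no cytosine of Igf2 exceeded 35 reads.

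The middle of Igf2 was sparse. Its 6 kb held 16 listed cytosines and 73 reads, with a median of 4.5 reads and a highest count of 9. The sequence printed above for the second start lies within it, but was not its sparse part. That sequence held 5 of these 16 listed cytosines and 24 of the 73 reads. Its bin, from 149847001 to 149848000, had 28 reads on 6 cytosines and was high by the rule above. Of the 14 CG of the sequence 5 were listed, none with more than 7 reads. The share of CG that are listed elsewhere was not measured, so 5 of 14 cannot be called low or high. The CG of the rest of the 6 kb were not counted. The gap of 1735 bases between the listed cytosines at 149847312 and 149849048 begins at that start's most upstream listed CG. Of the 126 dyads of Igf2 with a listed cytosine 44 were listed on both strands, or 34.9% (26.6 to 43.9). A single CH cytosine was listed in the gene, a CT with 8 reads.

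**Figure D5:**
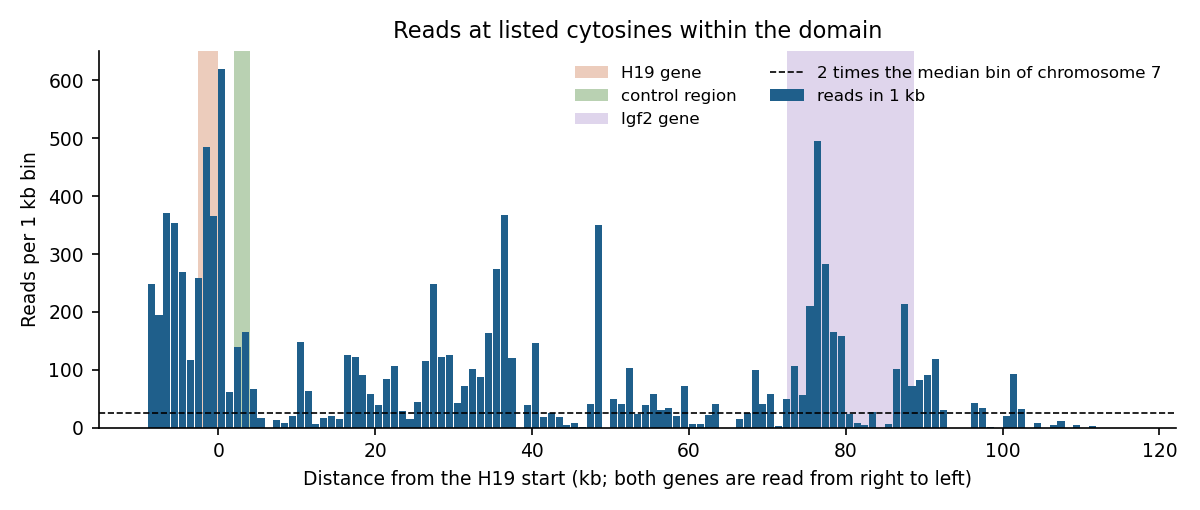
Reads per 1 kb bin (y axis) within the domain against distance from the H19 start in kb (x axis); shading marks H19, the control region and Igf2, and the dashed line the 26 reads at which a bin was called high. Reads are high across H19, moderate in the control region, and split in Igf2 into a 3′ part with up to 495 reads per bin, a sparse middle and a 5′ part.

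Between the control region and Igf2 the mean density was near that of the chromosome, but the typical bin had more reads. Of the 69 bins there, 41 were high, 10 were low and 5 had no listed cytosine, with a median of 41 reads. On chromosome 7 the median bin had 13 reads, 40.9% of bins were high, 42.9% were low and 35.1% had no listed cytosine. The 68.548 kb had 64.3 reads per kb (62.4 to 66.3) against 59.8 for the rest of chromosome 7, and a median of 8 reads per cytosine. The bin from 149800001 to 149801000 had 367 reads on 8 cytosines. In that bin 3 neighbouring dyads within 42 bases held 293 of the listed reads. The middle dyad, at 149800808, was listed with 68 plus-strand and 70 minus-strand reads. The dyad below it had 70 reads, all at the plus-strand cytosine, and the dyad above it had 16 and 69. The plus-strand cytosines at 149800788 and 149800808 each had a minus-strand counterpart 21 bases away with 70 and 69 reads, so some of these reads may be listed at both, and the middle dyad's strands need not be separate measurements. A second site lay at 149812836 on the plus strand with 142 reads, paired 22 bases away with 145 on the minus strand at 149812858. The dyads of this last pair were each listed on 1 strand. Among the 10 cytosines of the domain with the most reads, 2 lay in H19, 2 in the 2 kb before it and 6 between the control region and Igf2. These stretches held 8.07%, 2.69% and 45.1% of the domain's listed cytosines. All 10 were CG, as were all but 2.34% of the domain's listed cytosines. They stand in pairs 21 or 22 bases apart that may share reads, so they are not 10 separate observations.

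The longest stretch without a listed cytosine was at the upper edge of the domain, where the last 4989 bases after 149875012 had none and the next listed cytosine lay outside, at 149880274. Between listed cytosines of the domain, the longest gaps above Igf2 were 3885 bases from 149856518 to 149860404 and 2489 bases from 149862195 to 149864685. Between the control region and Igf2, 2957 bases from 149827865 to 149830823 and 1779 bases from 149769753 to 149771533 had none. The latter lies beyond the outer edge of the control region, past the end of the long run of high bins. Above Igf2 the density was 21.5 reads per kb (19.8 to 23.3). Of the 27 bins there, 16 were low and 8 were high, against backgrounds of 42.9% and 40.9% on chromosome 7.

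Few CH cytosines were listed in the domain. They numbered 20 of 855, or 2.34% (1.43 to 3.59), against 6.91% on the rest of chromosome 7 and 3.16% in both flanks. By base, 10 were CA, 9 CT and 1 CC, and each carried between 2 and 8 reads. Of the 20, 17 lay between the control region and Igf2, a stretch with 45.1% of the domain's listed cytosines. The CH share there was 4.4% (2.59 to 6.96). None lay in H19, the 2 kb before it or the control region. The interval of each of these stretches includes the 2.34% of the domain. The narrowest, that of H19, was 0 to 5.21%. Their lack of CH is therefore not shown to differ from the domain. Strands were near balance in the domain, with 432 plus-strand cytosines carrying 5291 reads and 423 minus-strand cytosines carrying 5335.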

How the data were processed

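The authors deposited 1 table for both libraries, with a whole-number read count per listed cytosine, its position, dinucleotide, strand and class code, without scaling. CASAVA 1.8.2, Bowtie and the build mm9 are named in the submitters' processing notes. Not given in the sources used here are read filters, the treatment of PCR copies, the minimum for listing, the rule that assigns reads to cytosines and the way the libraries were pooled. The table holds 176006227 reads in all. Positions were converted to 1-based coordinates. Reads and cytosines were summed over stretches set by the H19 and Igf2 positions and in bins of 1 kb. Reads per kb have exact Poisson intervals, ratios exact conditional binomial intervals and shares exact Clopper-Pearson intervals, all at 95%; PCR reads are not independent molecules. The rest of chromosome 7 runs from 3001931 to 152524320 without the domain, and includes stretches without a listed cytosine. The functions were tested on simulated sites. The named sites are the 10 cytosines and 5 bins with the most reads, the 5 longest gaps between listed cytosines and the 5 highest control-region cytosines. The domain and these lists were chosen with earlier results of these data known. Python 3.11.15, numpy 2.4.6, pandas 2.3.3 and scipy 1.17.1 were used.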

Additional observations from a re-analysis of the deposited data

How the results depend on the processing

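Over 7 results and 41 alternatives, 25 values stayed inside the counting interval of the reported value, 16 left it and 0 changed direction. The comparison with the flanks pooled both of them, and none used a single flank. The lower flank alone had more reads per kb than the domain, 103.2 against 85.0. It also had more listed cytosines per kb, 8.22 against 6.84. The upper flank had fewer of each, 35.9 reads and 3.18 cytosines per kb. The ratio of reads in the domain to the rest of chromosome 7 was 1.47 with CG cytosines only, 1.45 with each cytosine counted once, 1.37 without the top 0.1% of cytosines and 1.22 against the flanks, where the ratio of cytosines was 1.20. For the control region against the rest of the domain it was 1.45 with a minimum of 10 reads, 2.63 with each cytosine counted once, 1.54 with a weight of 0.5 for 2CG and 2CH, and 1.29 with limits of 1 to 5 kb. For H19 it was 5.66 with a minimum of 10 reads, 4.11 with each cytosine counted once and 4.68 with the weight of 0.5. For Igf2 it was 1.68 with each cytosine counted once, 1.66 with the weight and 1.63 without the top 0.1%. Dyads on both strands made up 21.4% with a minimum of 10 reads, which removes cytosines by construction. The cause of the other moves was not tested. With CG cytosines only, the share of dyads on both strands could not move from 33.4%, because dyads are CG. That 1 of the 25 was therefore fixed in advance. Leaving out the top 0.1% had little room to move the share of high bins. It removed 2 cytosines of the domain, both in a bin that stayed high with 158 reads. H19 and the control region lost no reads by it, so only the rest of the domain could move their ratios. High bins could not be called at a minimum of 10 reads, because the median bin of chromosome 7 was then empty. No paired analysis was possible because the table pools the libraries, and none could be left out. Counts of 2 to 9 reads at most cytosines of the control region limit statements about single sites.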
